A study of Mus musculus with 23 samples.

Results

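The genes described here are 41 mouse genes of DNA damage signalling and repair, chosen by name: a probe belongs to one of them when the array's gene annotation, updated through the gene ID, gives it that symbol. Of the 41, 39 had at least 1 probe (48 probes in all), and 36 passed the filter on missing and dim values, out of 12651 genes tested on the array. Xrcc2 and Xrcc3 had no probe. Atr, Xrcc5 and Ercc2 had probes but too few or too dim values to be tested. The arrays measured RNA from pools of 3 to 7 whole mouse embryos of day 8.5, from matings of mice heterozygous for p53. Embryos spent 10 minutes in a water bath of 43 °C (heat) or 38 °C (control). The groups were p53 -/- (null) heat pools (n = 3) and null control pools (n = 4), p53 +/- (heterozygous) heat pools (n = 4) and heterozygous control pools (n = 4), and p53 +/+ (wildtype) heat pools (n = 4) and wildtype control pools (n = 4). The p53 allele, the mouse strain and the time between bath and collection do not stand in the sources used here, and a further null heat pool was not analysed here. Replicates are named by the labels' letters A to D.

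Cells answer damage in DNA with kinases (Atm, Atr) that pass a signal through Chek1 and Chek2 to p53 and the cell cycle, and with repair pathways that each take a kind of lesion. Homologous recombination copies the sister chromatid, end joining rejoins broken ends, and base excision, mismatch and nucleotide excision repair replace altered, mispaired or bulky bases. Embryos at this stage divide fast, and many of these genes are known to be transcribed most in dividing cells. The comparisons ask how their transcript levels differ between the baths within a genotype and between the genotypes within a bath.

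Intensities are in the array's relative units after quantile normalization, log2 fold changes are given ± SE, and a gene "passed" when its limma p-value after Benjamini-Hochberg adjustment over all tested probes of the comparison was under 0.05. Arrays of a group correlated at 0.9687 to 0.9947. Ccng1, a p53 target, averaged 1.9 in null heat and 1.42 in null control pools, 7.07 in heterozygous heat and 2.68 in heterozygous control pools, and 11.7 in wildtype heat and 3.93 in wildtype control pools. Hspb1, a heat shock gene, was at 63.6 to 95.6 in the heat pools and at 15.2 to 20 in the 11 control pools with a value. The inducible Hsp70 gene Hspa1a was uneven among heat pools, at 1.79 to 121 in null, 1.51 to 2.12 in heterozygous and 0.881 to 122 in wildtype pools, against 0.488 to 1.01 over the control pools. Trp53, the targeted gene, had no probe that was tested, so its own level does not check the genotype labels. The control arrays hold 7576 to 11666 empty cells each and the heat arrays 0, so in every comparison between baths the bath and the handling of the arrays cannot be told apart. All 5 neural tube markers were tested, and their summed intensity was 30.0 to 41.3 in the 11 heat pools and 32.9 to 41.8 in the 12 control pools. The yolk sac markers (6 of 8 summed) ran from 110 to 302 in heat pools and from 112 to 250 in control pools, and their median log2 fold change with heat was 0.43 in null, 0.59 in heterozygous and -0.61 in wildtype pools. Summed heart markers (3 of 4) ran from 90.7 to 134 in heat and from 111 to 150 in control pools, primitive red cell markers (3 of 5) from 75.8 to 183 and from 108 to 186, somite markers (3 of 4) from 18 to 30.0 and from 22.7 to 29.0, and trophoblast and decidua markers (2 of 8) from 3.83 to 10.0 over all pools. Of these markers Dcn (decidua, not in the sum) rose with heat by 0.97 ± 0.23 in null pools and by 0.5 ± 0.12 in the average, Apoa2 (yolk sac) fell by 1.37 ± 0.35 in wildtype pools and Tbx6 (somite) fell by 0.25 ± 0.07 in the average. The part of these cell types in the results below was not tested. In RNA from whole embryos, fewer cells of a type and less RNA per cell cannot be told apart.

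The median SD of a gene within groups was 0.18 on the log2 scale, from 0.08 for Xpa to 0.41, and over all genes tested it was also 0.18. In 26 of the 36 the highest and the lowest of all pools differed by under 2-fold, and in 5 by over 3-fold (Ercc3, Trp53bp1, Pms2, Xrcc4 and Ercc5). With heat, 4 of 36 passed in null pools (2 higher and 2 lower), 3 in heterozygous pools (0 higher and 3 lower) and 2 in wildtype pools (0 higher and 2 lower). Of all genes tested, 5.93% passed in null (3.76% higher and 2.17% lower), 2.9% in heterozygous (1.08% higher and 1.82% lower) and 3.2% in wildtype pools (1.5% higher and 1.7% lower). The median log2 fold change of the 36 was -0.01 in null, -0.07 in heterozygous and -0.07 in wildtype pools, beside 0.01, 0.02 and 0.0 over all genes tested. Heat and control pools did not overlap in 10 of the 36 in null, 7 in heterozygous and 4 in wildtype pools, beside 23.9%, 11.3% and 13.2% of all genes. The average of the 3 heat responses called 7 of 36 (3 higher and 4 lower), beside 15.1% of all genes (7.47% higher and 7.6% lower). That split depends on the scaling. With median centring in place of quantile normalization the average called 12 of 36 (1 higher and 11 lower). The share of all genes called with median centring is not given here, and 15.1% is not its background. Among all probes called, the share that was higher was 54.3% with quantile normalization, 29% with median centring and 21.5% in values as deposited. Of the 38 calls on members and other repair genes repeated under the alternatives, 0 changed direction. These calls were chosen for passing in the same arrays that the alternatives refit, so a reversal was unlikely from the start. The plot of heat responses by repair role shows these calls beside the genes that did not pass.

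**Figure D1:**
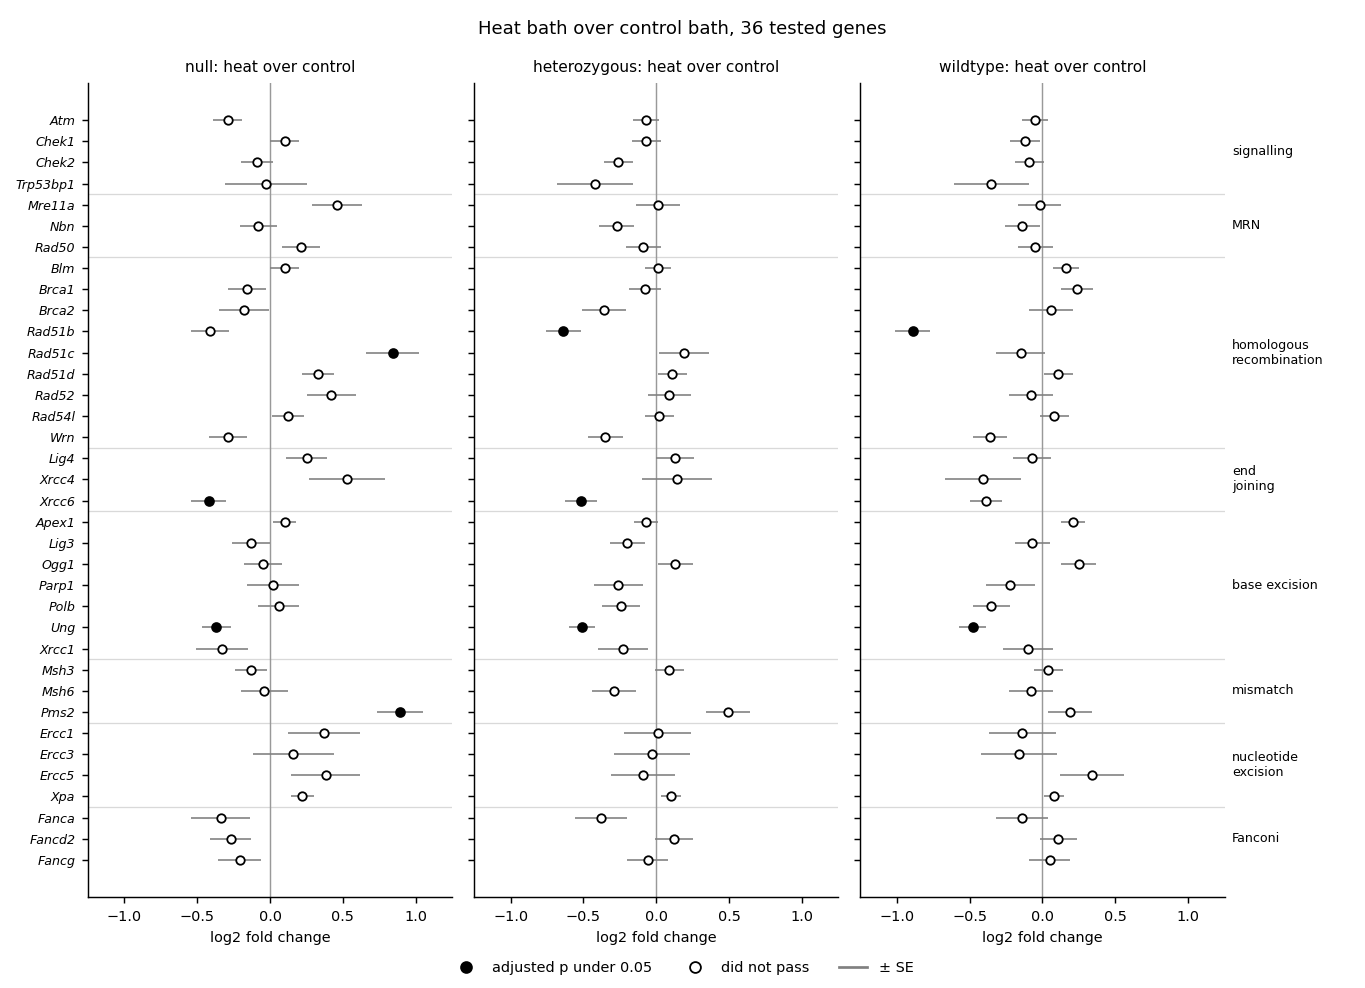
Log2 fold change (x axis, ± SE) of heat over control bath for the 36 tested genes in rows, grouped by repair role, in null (left), heterozygous (middle) and wildtype pools (right). Filled points passed at an adjusted p under 0.05: Rad51c, Pms2, Xrcc6 and Ung in null, Rad51b, Xrcc6 and Ung in heterozygous, and Rad51b and Ung in wildtype pools.

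The largest response to heat among the 36 in wildtype pools was a fall of Rad51b, which takes part in homologous recombination at broken DNA. Its intensity was 0.905, 0.931 and 1.03 in null heat pools, against 1.15, 1.29, 1.22 and 1.41 in null control pools. After heat the heterozygous pools had 0.851, 0.957, 0.914 and 1.04, against 1.58, 1.6, 1.38 and 1.31 in heterozygous control pools. After heat the wildtype pools had 0.646, 0.708, 0.923 and 0.844, against 1.55, 1.23, 1.42 and 1.56 in wildtype control pools. Every heat pool was below every control pool, across the genotypes, which no other tested gene of the 36 showed and which held, in either direction, for 0.846% of all genes. The probe was among the dimmest of the 36, with a median of 1.15 over all pools. Member probes too dim or sparse to be tested, where both baths had values, all had lower deposited medians on heat than on control arrays. Their control medians rest on 2 to 11 of the 12 control arrays and their heat medians on all 11 heat arrays. The medians thus do not cover like sets of values, and nothing about Rad51b, which had a value in every pool, is drawn from them. The part of dimness in the fall of Rad51b was not tested. Rad51b fell in wildtype pools by 0.89 ± 0.12 on the log2 scale (adjusted p = 0.00018) and in heterozygous pools by 0.64 ± 0.12 (adjusted p = 0.0059). In null pools the log2 fold change was -0.41 ± 0.13 (adjusted p = 0.064). The difference between the null and the wildtype response did not pass (0.48 ± 0.17, adjusted p = 0.14), nor did that between heterozygous and wildtype (0.25 ± 0.17, adjusted p = 0.89). The heterozygous call was lost with only the heterozygous arrays in the fit (adjusted p = 0.088) and without the 4 arrays whose brightest values were the lowest (adjusted p = 0.068). These 4 were wildtype control A, heterozygous control A and B, and null heat B, which left only C and D of the heterozygous control pools. The wildtype call of Rad51b was kept in all 17 alternatives run.

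Ung, the glycosylase that removes uracil from DNA at the start of base excision repair, was lower after heat in each genotype. Null heat pools had 7.58, 8.48 and 10.4, against 12, 10.6, 11.5 and 10.9 in null control pools. In the heterozygous genotype heat pools had 6.78, 7.11, 7.37 and 7.98, against 9.42, 10.1, 11.0 and 11.3 in heterozygous control pools. The heat pools of the wildtype genotype had 7.68, 6.12, 6.82 and 7.3, against 9.68, 9.9, 9.72 and 9.38 in wildtype control pools. Heat and control pools did not overlap within any genotype, with null heat C closest to its controls. Ung fell by 0.37 ± 0.10 in null (adjusted p = 0.04), by 0.51 ± 0.09 in heterozygous (adjusted p = 0.0057) and by 0.48 ± 0.09 in wildtype pools (adjusted p = 0.0067). The wildtype call was kept in all 17 alternatives, and the heterozygous one was lost only with the heterozygous arrays fitted alone (adjusted p = 0.072). The null call was lost in 12 of 16 alternatives, among them leaving out any 1 null pool except heat C, with adjusted p-values of 0.063 to 0.15 without each of the others.

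Xrcc6 codes for Ku70, which with the product of Xrcc5 binds broken ends and starts end joining. Null heat pools had 10.3, 9.62 and 9.24, against 13.4, 12.6, 13.4 and 12.3 in null control pools. Heterozygous heat pools had 10.7, 10.8, 9.64 and 9.46, against 13.8, 16.1, 13.6 and 14.7 in heterozygous control pools. Wildtype heat pools had 8.15, 8.23, 11.3 and 10.3, against 14.1, 11.0, 10.6 and 14.0 in wildtype control pools. The groups did not overlap in null and heterozygous pools, and in wildtype pools heat C lay above controls B and C. Xrcc6 fell by 0.42 ± 0.12 in null (adjusted p = 0.045) and by 0.52 ± 0.11 in heterozygous pools (adjusted p = 0.014). In wildtype pools the log2 fold change was -0.39 ± 0.11 (adjusted p = 0.056). Over the 3 genotypes it fell by 0.44 ± 0.07 (adjusted p = 9.8e-05). The null call was lost in 12 of 16 alternatives, among them without any 1 of the 7 null pools (adjusted p 0.059 to 0.14), and the heterozygous call with those arrays fitted alone (adjusted p = 0.076) or without the 4 arrays whose brightest values were the lowest (adjusted p = 0.063). The average was kept in all 31 alternatives.

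Wrn, a helicase and exonuclease that acts at stalled forks, fell by 0.33 ± 0.07 over the 3 genotypes (adjusted p = 0.0037) and passed in none of them singly. Its intensity was 1.72 to 2.2 in null heat and 2.2 to 2.72 in null control pools, 1.73 to 2.36 in heterozygous heat and 2.28 to 2.75 in heterozygous control pools, and 1.42 to 2.0 in wildtype heat and 1.95 to 2.31 in wildtype control pools. Single pools of the baths met or overlapped in each genotype. The average of Wrn, like those of Rad51b (fall of 0.65 ± 0.07, adjusted p = 3e-06) and Ung (fall of 0.45 ± 0.06, adjusted p = 1.4e-05), was kept in all 31 alternatives.

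**Figure D2:**
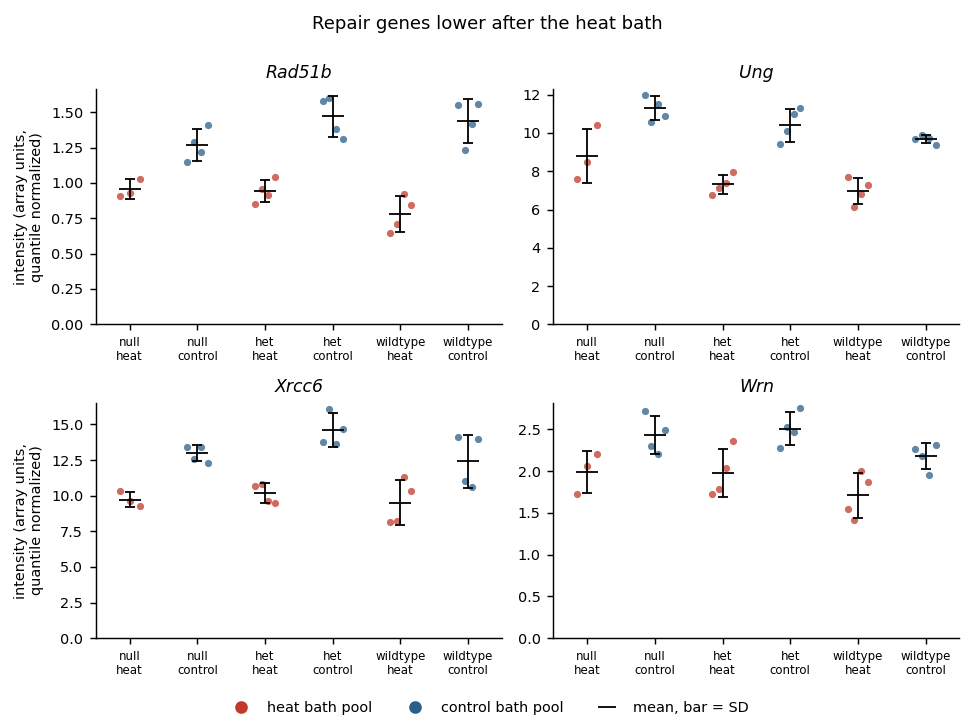
Normalized intensity (y axis, array units from 0) of Rad51b, Ung, Xrcc6 and Wrn by group, with 1 point per pool in the order A to D, heat pools in red, control pools in blue, and the mean with its SD in black. Rad51b was at 0.646 to 1.04 in the 11 heat pools and at 1.15 to 1.6 in the 12 control pools, while the pools of Wrn met or overlapped within each genotype.

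Pms2, a mismatch repair endonuclease, moved the other way. Null heat pools had 6.67, 5.36 and 8.2, against 4.83, 3.33, 3.93 and 2.59 in null control pools. After heat the heterozygous pools had 6.35, 6.82, 6.28 and 7.16, against 4.92, 5.18, 4.83 and 4.01 in heterozygous control pools. After heat the wildtype pools had 6.5, 6.28, 6.14 and 6.27, against 5.41, 5.95, 4.84 and 5.91 in wildtype control pools. Heat pools lay above control pools in each genotype, and the null control pools B, C and D were the lowest of all. Pms2 rose by 0.89 ± 0.16 in null pools (adjusted p = 0.0033) and by 0.53 ± 0.09 over the 3 genotypes (adjusted p = 0.00031). In heterozygous pools the log2 fold change was 0.49 ± 0.15 (adjusted p = 0.077) and in wildtype pools 0.19 ± 0.15 (adjusted p = 0.5). The null response minus the wildtype response was 0.70 ± 0.21 (adjusted p = 0.1) and did not pass. The null call was lost only with the null arrays fitted alone (adjusted p = 0.053), and the average was kept in all 31 alternatives.

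The 250 bases before the RefSeq start of the 4 genes with the smallest adjusted p over the 3 genotypes are given on GRCm38.p6, to show what the upstream sequence of the genes that fell and of the gene that rose holds. Capitals mark a CCAAT box (CCAAT), an E2F site (TTTGGCGC, TTTCGCGC, TTTCCCGC or TTTGCCGC) or an inverted pair of heat shock units (GAANNTTC or TTCNNGAA), each searched on both strands.
Rad51b promoter, chr12:79297032-79297281, plus strand: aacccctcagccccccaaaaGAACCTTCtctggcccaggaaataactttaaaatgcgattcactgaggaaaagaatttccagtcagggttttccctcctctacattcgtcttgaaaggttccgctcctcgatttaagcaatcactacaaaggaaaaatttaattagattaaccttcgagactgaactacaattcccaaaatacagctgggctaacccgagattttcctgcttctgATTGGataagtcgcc
Ung promoter, chr5:114130185-114130434, plus strand: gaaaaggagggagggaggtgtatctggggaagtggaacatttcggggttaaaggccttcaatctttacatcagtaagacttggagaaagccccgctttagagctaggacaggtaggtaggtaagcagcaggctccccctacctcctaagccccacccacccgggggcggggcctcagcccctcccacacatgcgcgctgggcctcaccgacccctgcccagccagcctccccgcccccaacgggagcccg
Xrcc6 promoter, chr15:82016119-82016368, plus strand: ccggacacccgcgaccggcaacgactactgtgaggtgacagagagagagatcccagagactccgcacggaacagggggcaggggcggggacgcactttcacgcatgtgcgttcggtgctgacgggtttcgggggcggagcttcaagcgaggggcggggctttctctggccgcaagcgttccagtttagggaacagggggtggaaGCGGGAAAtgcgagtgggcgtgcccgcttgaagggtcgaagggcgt
Pms2 promoter, chr5:143909751-143910000, plus strand: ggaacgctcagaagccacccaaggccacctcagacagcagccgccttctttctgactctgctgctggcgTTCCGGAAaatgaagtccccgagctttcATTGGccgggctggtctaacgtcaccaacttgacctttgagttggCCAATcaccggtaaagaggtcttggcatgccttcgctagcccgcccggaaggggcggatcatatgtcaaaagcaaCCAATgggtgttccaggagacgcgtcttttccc

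Rad51b holds a heat shock pair 230 bases before its start and a CCAAT box 15 bases before it, and a second RefSeq start of the gene has the CCAAT box and no such pair. Pms2 holds a heat shock pair at 181 bases and CCAAT boxes at 153, 108 and 33 bases before its start. Xrcc6 holds an E2F site at 46 bases and none of the other motifs, and these letters are not in the Ung window. So the heat shock letters stand before a gene that fell and before the gene that rose. Promoters were found for 33 of the 41 genes (37 promoters). A CCAAT box lay in 18 of the 33 genes (54.5%), against 52.1% of the other repair genes, 62.5% of the replication and G1/S genes listed for comparison and 37.5% of all 27018 genes with a promoter. An E2F site lay in 5 (15.2%; Brca2, Chek2, Fancg, Msh3 and Xrcc6), against 7.04% of the other repair, 28.1% of the replication and G1/S and 2.16% of all genes. A heat shock pair lay in 2 (6.06%), against 22.5% of the other repair, 12.5% of the replication and G1/S and 14.6% of all genes. The median GC content was 58.8% in these promoters and 52.4% in all promoters. A match is a description of letters and not of a bound factor.

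Rad51c, another gene of homologous recombination, and Rad52, which binds single-stranded DNA and helps pair strands, stood low in the null control pools. Rad51c was at 1.83, 1.82 and 1.98 in null heat pools, against 1.31, 0.919, 1.06 and 0.933 in null control pools. In the heterozygous genotype heat pools had 2.18, 1.83, 1.71 and 1.67, against 1.83, 2.07, 1.29 and 1.37 in heterozygous control pools. The heat pools of the wildtype genotype had 1.55, 1.87, 1.44 and 1.11, against 1.96, 1.37, 1.59 and 1.66 in wildtype control pools. The null controls lay below the wildtype controls, while the baths overlapped in heterozygous and in wildtype pools. Rad51c rose with heat in null pools by 0.84 ± 0.18 (adjusted p = 0.011), which leaving out any 1 null pool did not end and the split score as a covariate did (0.57, adjusted p = 0.079). With heat the log2 fold change was 0.19 ± 0.17 in heterozygous pools (adjusted p = 0.6) and -0.15 ± 0.17 in wildtype pools (adjusted p = 0.66). The null response exceeded the wildtype response by 1.0 ± 0.24 (adjusted p = 0.049), the only difference between responses that passed among the 36, beside 0.704% of all genes (0.364% higher and 0.34% lower). It passed in 6 of 24 alternatives, with adjusted p-values from 0.024 to 0.13, and in 2 of the 15 that left out 1 pool.

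Between genotypes in the control bath, 3 of 36 passed in null against wildtype pools, all lower in null, beside 8.64% of all genes (4.01% higher and 4.63% lower). Rad51c fell by 0.65 ± 0.17 (adjusted p = 0.024), Pms2 by 0.62 ± 0.15 (adjusted p = 0.019) and Rad52 by 0.49 ± 0.15 (adjusted p = 0.049). Rad52 was at 1.44, 1.22 and 1.15 in null heat pools and at 1.19, 0.967, 0.819 and 0.842 in null control pools. It was at 1.42, 1.39, 1.31 and 1.16 in heterozygous heat and at 1.56, 1.39, 0.91 and 1.19 in heterozygous control pools. Wildtype heat pools had 1.13, 1.16, 1.61 and 1.19, and wildtype control pools 1.44, 1.23, 1.27 and 1.39. The null and wildtype controls did not overlap for these 3 genes, and the median over the 36 was 0.04, the same as over all genes. The pools did not overlap in 9 of the 36 (5 higher and 4 lower in null), beside 26.7% of all genes in either direction. Markers of cell types that passed in this comparison were Otx2 (-0.95 ± 0.27) and Pax6 (0.5 ± 0.14) of the neural tube and Klf1 (-1.08 ± 0.22) of red cells, and their part in these differences was not tested.

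These 3 calls were lost with a score for a split among the control arrays as a covariate. The score, built on the difference of heterozygous control pools A and B from C and D, ran from 0.243 to 0.608 in null control pools and from -0.424 to -0.06 in wildtype control pools. These ranges do not overlap, so in this comparison the genotype and the score cannot be told apart. Within groups this score correlated with the log2 values over the 23 arrays at -0.67 for Rad51c, -0.62 for Rad52 and -0.09 for Pms2, and at 0.78 for Xrcc1 and 0.68 for Fancd2 at the other end of the 36, as a description over pools that share arrays and scaling. With the score in the model 0 of 36 passed. The share of all genes that passed in that fit is not given here, so this count stands without a background. The log2 fold changes with the score were -0.33 for Rad51c (adjusted p = 0.51), -0.22 for Rad52 (adjusted p = 0.68) and -0.59 for Pms2 (adjusted p = 0.22). The Pms2 call was also lost without wildtype control B or D or null control B or D (adjusted p 0.054 to 0.065), and the Rad51c call without 6 of the 8 pools in turn (adjusted p 0.052 to 0.078; it was kept without wildtype control B and without null control A). Rad52 passed only without null control A among those 8 (adjusted p = 0.026).

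**Figure D3:**
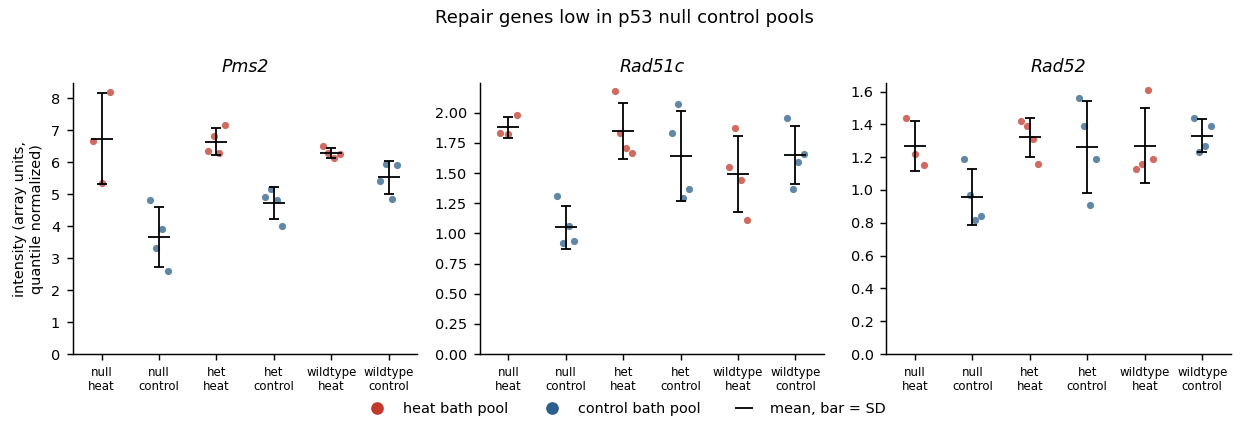
Normalized intensity (y axis, array units from 0) of Pms2, Rad51c and Rad52 by group, with 1 point per pool in the order A to D, heat pools in red, control pools in blue, and the mean with its SD in black. Rad51c lay at 0.919 to 1.31 in the 4 null control pools and at 1.11 or more in every heat pool.

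After the heat bath no gene of the 36 passed by limma in null against wildtype pools (0.498% of all genes did), in heterozygous against wildtype pools (0.119%) or in null against heterozygous pools (0.0079%). An unadjusted p under 0.05 was reached there by 7, 3 and 1 of the 36, beside 19.5%, 9.73% and 4.71% of all genes. In the control bath 0 of 36 passed in heterozygous against wildtype pools (0.0% of all genes) and in null against heterozygous pools (0.0316%). Unadjusted, 4 and 7 of the 36 were under 0.05, beside 6.82% and 18.6% of all genes. The heat response passed in 0 of 36 between heterozygous and wildtype pools (0.0% of all genes) and between null and heterozygous pools (0.0395%), with 1 and 2 of the 36 under 0.05 unadjusted, beside 5.25% and 13.2%. After heat the pools did not overlap in 4 of the 36 in null against wildtype (10.8% of all genes), 3 in heterozygous against wildtype (4.42%) and 1 in null against heterozygous (4.39%), and in the control bath in 1 in heterozygous against wildtype (4.31%) and 3 in null against heterozygous (7.55%). In null heat pools Rad51c, Rad52 and Pms2 had log2 fold changes over wildtype heat pools of 0.35 ± 0.18, 0.01 ± 0.17 and 0.08 ± 0.16. None of the 3 was thus below 0 after heat, as the plot of null over wildtype shows, while the difference between the null and wildtype responses passed for Rad51c and not for Pms2 or Rad52 (0.50 ± 0.23, adjusted p = 0.2).

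**Figure D4:**
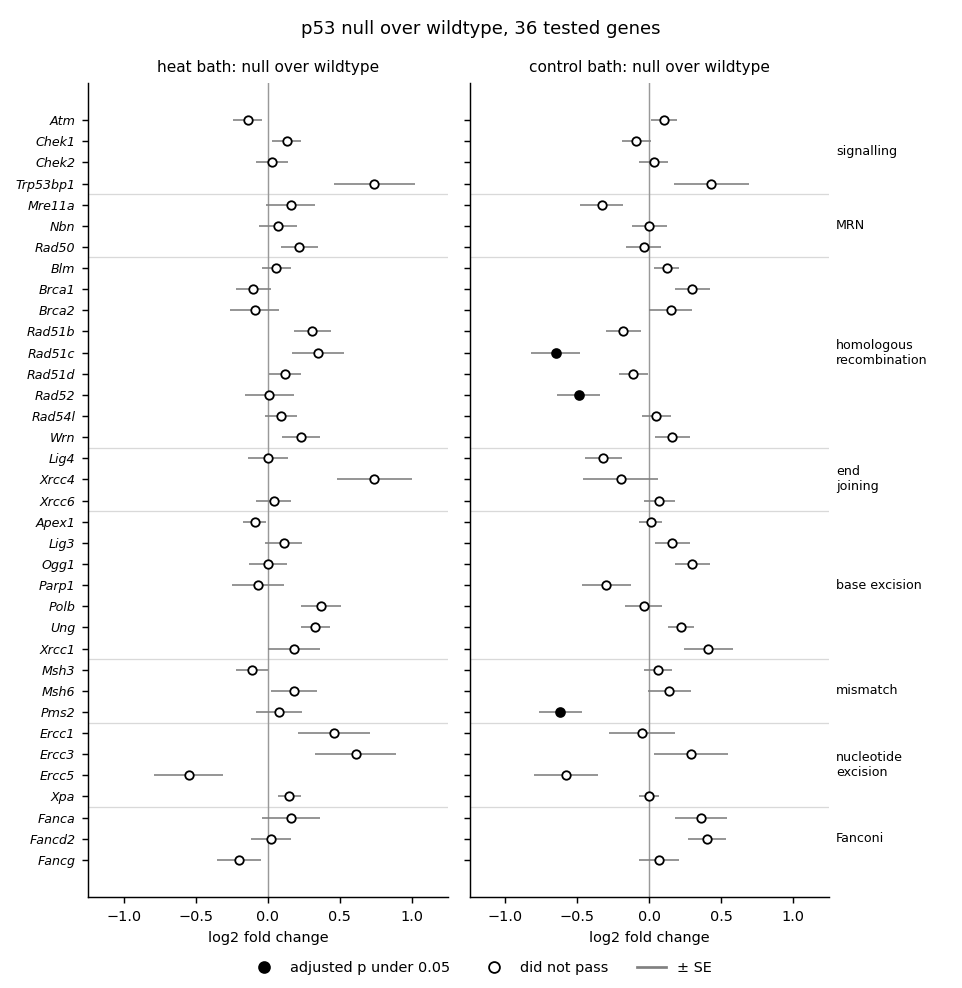
Log2 fold change (x axis, ± SE) of null over wildtype pools for the 36 tested genes in rows, grouped by repair role, in the heat bath (left) and the control bath (right). Filled points passed at an adjusted p under 0.05: none in the heat bath, and Rad51c, Rad52 and Pms2 in the control bath, all below 0.

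Of the damage signalling genes 4 of 5 were tested, and 0 passed in any of the 13 comparisons. Atm, the kinase activated by double-strand breaks, had 15.8, 14.7 and 12.6 in null heat pools, against 15.5, 19.3, 16.9 and 18.4 in null control pools. Heterozygous heat pools had 15.4, 17.3, 14.8 and 12.7, against 15.4, 16.6, 15.6 and 15 in heterozygous control pools. After heat the wildtype pools had 14.4, 16.1, 16.0 and 16.7, against 15.8, 16.1, 17.0 and 16.5 in wildtype control pools. The baths overlapped in every genotype, with log2 fold changes of -0.29 ± 0.10 in null (adjusted p = 0.087), -0.07 ± 0.09 in heterozygous and -0.05 ± 0.09 in wildtype pools. A second probe of Atm did not pass either (0.0 ± 0.29 in null, -0.52 ± 0.25 in heterozygous and -0.44 ± 0.25 in wildtype pools).

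Chek1, the kinase downstream of Atr, had 19.2, 20.1 and 19.1 in null heat pools, against 18.4, 14.6, 19.0 and 21.1 in null control pools. After heat the heterozygous pools had 19.3, 19.1, 18.9 and 19.0, against 20.1, 22.6, 19.6 and 18 in heterozygous control pools. The heat pools of the wildtype genotype had 17.3, 18.4, 18.4 and 17.1, against 22.2, 17.4, 18.2 and 19.9 in wildtype control pools. The heat pools of a genotype lay close together inside the range of their controls or nearly so, and no log2 fold change with heat was beyond 0.12 in size. Chek2, the kinase downstream of Atm, had 6.9, 6.23 and 6.99 in null heat pools, against 6.75, 5.93, 7.56 and 8.61 in null control pools. In the heterozygous genotype heat pools had 6.0, 6.87, 6.94 and 7.4, against 8.17, 7.94, 8.06 and 8.37 in heterozygous control pools. Wildtype heat pools had 5.85, 6.91, 6.74 and 6.78, against 6.45, 6.79, 6.66 and 8.19 in wildtype control pools. Only the heterozygous pools of Chek2 stood apart by bath, with -0.26 ± 0.10 (adjusted p = 0.19). Trp53bp1, a scaffold at broken ends that favours end joining, ranged from 0.384 to 1.21 over all pools. It was higher by 0.74 ± 0.28 in null than in wildtype heat pools (adjusted p = 0.17), which did not pass. Atr could not be tested: 1 of its probes had deposited values of 0.284 to 0.69 on the 11 heat arrays and 0.381 to 0.857 on the 10 control arrays with a value.

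**Figure D5:**
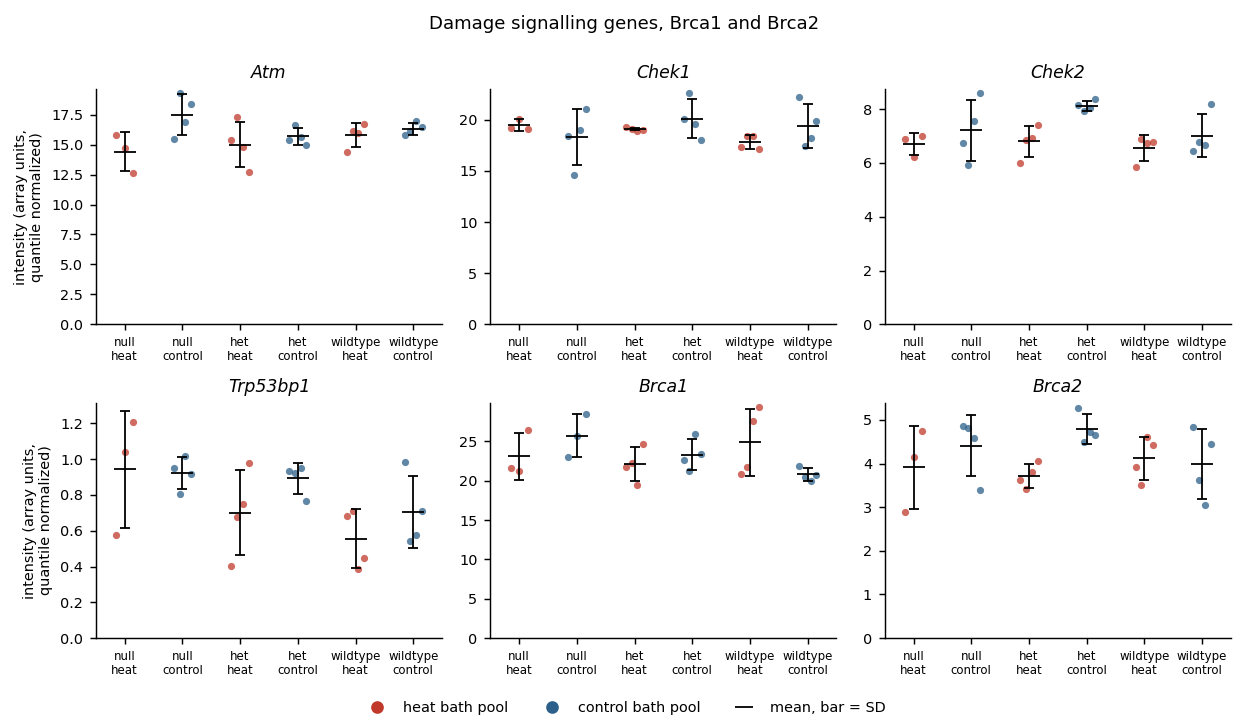
Normalized intensity (y axis, array units from 0) of Atm, Chek1, Chek2, Trp53bp1, Brca1 and Brca2 by group, with 1 point per pool in the order A to D, heat pools in red, control pools in blue, and the mean with its SD in black. None passed in a comparison, and the heterozygous pools of Chek2 and Brca2 are the groups here that the bath parts without overlap, at 6.0 to 7.4 in heat against 7.94 to 8.37 in control pools and at 3.41 to 4.05 in heat against 4.5 to 5.27 in control pools.

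The subunits of the MRN complex, Mre11a, Rad50 and Nbn, which senses and trims broken ends, passed in no comparison (0 of 3). With heat their log2 fold changes ran from -0.08 to 0.46 in null, from -0.27 to 0.01 in heterozygous and from -0.14 to -0.02 in wildtype pools. The widest, Mre11a in null pools at 0.46 ± 0.17, had an adjusted p of 0.098.

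Among recombination genes 9 of 11 were tested. Brca1, which promotes resection of broken ends, had 21.6, 21.2 and 26.5 in null heat pools, against 23, 25.7 and 28.5 in the 3 null control pools with a value. Heterozygous heat pools had 21.8, 22.3, 19.5 and 24.7, against 22.7, 21.3, 25.9 and 23.4 in heterozygous control pools. After heat the wildtype pools had 20.8, 21.8, 27.6 and 29.4, against 21.9, 20.5, 20 and 20.7 in wildtype control pools. Wildtype heat C and D were high and A and B within reach of the controls, and the log2 fold change was 0.24 ± 0.11 (adjusted p = 0.25). A second probe of Brca1 gave 0.03 ± 0.09. Brca2, which acts in homologous recombination, had 2.88, 4.15 and 4.74 in null heat pools, against 4.85, 4.82, 4.59 and 3.39 in null control pools. After heat the heterozygous pools had 3.63, 3.41, 3.8 and 4.05, against 5.27, 4.5, 4.72 and 4.66 in heterozygous control pools. The heat pools of the wildtype genotype had 3.93, 3.52, 4.6 and 4.42, against 4.83, 3.62, 3.05 and 4.44 in wildtype control pools. The heterozygous baths did not overlap for Brca2, at -0.36 ± 0.15 (adjusted p = 0.23), and the others did.

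Rad51d, which also acts in homologous recombination, had 0.33 ± 0.11 with heat in null pools (adjusted p = 0.073) and rose over the 3 genotypes by 0.18 ± 0.06 (adjusted p = 0.049), a call lost in 19 of 31 alternatives, 16 of them leaving out 1 pool (adjusted p 0.053 to 0.11). Rad51b and Rad51d thus passed in opposite directions in the same average. Rad54l, a motor protein that aids strand exchange, and Blm, a helicase that undoes crossed strands, had log2 fold changes with heat of 0.02 to 0.12 and of 0.01 to 0.16 and did not pass.

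In end joining, Lig4, which seals the ends, and its partner Xrcc4 did not pass, and the heat responses of Lig4 ran from -0.07 to 0.25. Xrcc4 had 1.09, 1.35 and 1.36 in null heat pools and 1.06, 1.08, 0.626 and 0.451 in wildtype heat pools, a log2 fold change of 0.74 ± 0.26 (adjusted p = 0.15), and 0.53 ± 0.26 with heat in null pools (adjusted p = 0.21). Wildtype heat A and B against C and D stood apart in the same way for Ercc1 (7.44 and 7.82 against 3.11 and 3.45), the partner of a nuclease that cuts beside a bulky lesion. They did so too for Ercc3 (3.76 and 3.87 against 1.73 and 2.16), a helicase of the transcription factor TFIIH. The wildtype control pools of Ercc1 lay between these pairs, at 5.12 to 5.86. The SE of the heat response in wildtype pools was 0.23 for Ercc1 and 0.26 for Ercc3, and neither passed in any comparison. Xrcc5, for the partner of Ku70, could not be tested, with deposited values of 0.152 to 0.618 on the 11 heat arrays and of 0.391 to 1.05 on 5 control arrays.

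Base excision and single-strand break repair had 7 of 7 genes tested, and Ung alone passed. Apex1, the endonuclease that cuts at the base-free site, was at 108 to 149 over all pools, with log2 fold changes with heat of 0.10 ± 0.08 in null, -0.07 ± 0.08 in heterozygous and 0.21 ± 0.08 in wildtype pools. Polb, the polymerase that fills the gap, had 0.06 ± 0.14, -0.24 ± 0.13 and -0.35 ± 0.13 in the same order (adjusted p = 0.13 for the last). Parp1, which marks nicks with chains of ADP-ribose, had heat responses of -0.26 to 0.02, and Lig3, the ligase that works with Xrcc1, of -0.20 to -0.07. Xrcc1, the scaffold of this pathway, was at 0.41 ± 0.17 in null against wildtype control pools (adjusted p = 0.12) without overlap of the pools, as was Ogg1, the glycosylase for oxidised guanine, at 0.30 ± 0.12 (adjusted p = 0.1).

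In mismatch repair Pms2 alone passed, and Msh3 and Msh6, which bind mispairs, had log2 fold changes with heat of -0.13 to 0.09 and of -0.29 to -0.04. In nucleotide excision repair Xpa, which checks the opened lesion, rose over the 3 genotypes by 0.13 ± 0.04 (adjusted p = 0.041), the narrowest called change. Its call was lost in 19 of 31 alternatives, 15 of them leaving out 1 pool (adjusted p 0.054 to 0.093), and the change was 0.06 with median centring and 0.03 in values as deposited. Ercc5, the second nuclease at a bulky lesion, was at -0.58 ± 0.22 in null against wildtype control pools (adjusted p = 0.093), with null control pools from 0.668 to 1.79 and wildtype control pools from 1.41 to 2.3. Ercc2, the other helicase of TFIIH, could not be tested, with deposited values of 0.215 to 0.465 on the 11 heat arrays and 0.338 to 0.502 on 4 control arrays. The Fanconi anaemia genes Fanca, Fancd2 and Fancg, which handle cross-linked strands, passed in no comparison (0 of 3), with heat responses of -0.38 to -0.14 for Fanca and of -0.21 to 0.05 for Fancg. Fancd2 came closest, at 0.40 ± 0.13 in null against wildtype control pools (adjusted p = 0.051).

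Of 94 other repair genes listed for comparison 75 were tested. With heat 5 of 75 passed in null (3 higher and 2 lower), 1 in heterozygous (lower) and 4 in wildtype pools (all lower), and 14 in the average (4 higher and 10 lower). These are 6.67%, 1.33%, 5.33% and 18.7% of the 75, beside 5.93%, 2.9%, 3.2% and 15.1% of all genes. Prkdc, the kinase that joins Ku at broken ends, fell by 0.66 ± 0.17 in null pools (a value named after it was seen and not repeated under the alternatives), by 0.82 ± 0.16 in heterozygous and by 0.61 ± 0.16 in wildtype pools, and over the 3 genotypes by 0.70 ± 0.10 (adjusted p = 4.3e-05). Its average was kept in all 31 alternatives. The heterozygous call was lost with only those arrays fitted (adjusted p = 0.097). The wildtype call was kept in 8 of 17 and lost without 7 of the 8 wildtype pools in turn (adjusted p 0.06 to 0.13; kept without control B). Gtf2h1, a TFIIH subunit, rose in null pools by 0.84 ± 0.16 (adjusted p = 0.0063) and on average by 0.58 ± 0.09 (adjusted p = 0.00013), kept in all alternatives run. Rad1, of the clamp that activates Atr, rose in null pools by 0.59 ± 0.13 (adjusted p = 0.013), a call lost with the split score (0.42, adjusted p = 0.091) and without null heat B (adjusted p = 0.061). Its null response exceeded the wildtype one by 0.86 ± 0.18 (adjusted p = 0.025), lost in 7 of 24 alternatives. Tipin rose in null pools by 0.42 ± 0.11 and Rnf168 fell there by 0.39 ± 0.09, calls lost in 10 and in 7 of 16 alternatives. In wildtype pools Rpa3 fell by 0.41 ± 0.08 and Fancl by 0.37 ± 0.08, while Fanci fell by 0.63, a call lost in 9 of 17 alternatives.

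In null against wildtype control pools 11 of these 75 passed (2 higher and 9 lower; 14.7%, beside 8.64% of all genes), and each of the 4 of smallest p lost its call with the split score in the model. H2ax, the histone variant marked at breaks, was lower by 2.26 ± 0.54 on the log2 scale (adjusted p = 0.021; -0.80 and 0.43 with the score). Fancm, a translocase at stalled forks, fell by 1.63 ± 0.37 (adjusted p = 0.018), while its second probe had -0.01 (adjusted p = 0.98). Smc6 fell by 1.61 ± 0.39 (adjusted p = 0.022), and Gen1, a resolvase, rose by 0.61 ± 0.15 (adjusted p = 0.022). Each of the 8 pools was also left out in turn. The call was lost in 4 of these fits for H2ax, in 1 for Fancm, in 4 for Smc6 and in 5 for Gen1. Of 40 replication and G1/S genes 33 were tested. With heat 0 passed in null (8 unadjusted), 1 in heterozygous (E2f2, lower, with 9 unadjusted) and 0 in wildtype pools (6 unadjusted). Of all genes 5.93%, 2.9% and 3.2% passed in the same order. Unadjusted, 26.3% of all genes in null, 18.9% in heterozygous and 18.8% in wildtype pools were under 0.05. The median log2 fold changes of the 33 were 0.0 in null, -0.18 in heterozygous and -0.04 in wildtype pools. The average called 3 of 33 (9.09%, beside 15.1% of all genes). In null against wildtype control pools 2 of 33 passed (6.06%, beside 8.64%), and all these calls were lower.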

How the data were processed

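RNA of pooled day 8.5 embryos was hybridised to 1-colour CodeLink arrays, per the labels' protocols. The deposited values are linear intensities, 1 column per array. The sources used here do not name the scanner, the spot filter or any normalization by the authors. The members and gene lists were chosen with earlier results of these data known.

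Empty and coded cells (0.828% of tested cells) were missing. Values were floored at each array's 5th percentile of positive values, turned to log2 and quantile normalized over 23383 of 36227 probes, and 21979 brighter probes were tested. The brightest of a gene's probes stands for it. Of all probes, 21615 have 1 gene symbol, 681 several and 13931 none, from GEO's platform annotation updated through RefSeq (GRCm38.p6).

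The 6 groups over 23 arrays were fitted with limma 3.58.1 (R 4.3.3; lmFit, eBayes with a trend) in 13 comparisons, with Benjamini-Hochberg adjustment over probes and a threshold of 0.05. The fit was tested on simulated data. Values per pool are given for members that passed with pools that did not overlap and for Atm, Chek1, Chek2, Brca1, Brca2 and Rad51b, and at most 4 other repair genes of smallest p a comparison are named, besides Prkdc in null pools. Litters are not named, so p-values measure only the spread between these pools. Signal over background and the number of arrays limit the precision. Alternatives were median centring, values as deposited, no filter on dim probes, only the compared groups, the letter as a block, a split score, the mean of a gene's probes, each pool left out and, chosen after seeing the data, 4 arrays left out.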

Additional observations from a re-analysis of the deposited data

Results flagged for a closer look

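In 11 of 178 groups of 4 pools (6.18%) the highest or lowest pool of a tested gene stood apart from the other 3 by Dixon's criterion, and chance gives about 1 in 20. Null control D was such a pool for 4 genes: Rad51d at 2.04 (others 2.39 to 2.44), Brca2 at 3.39 (4.59 to 4.85), Msh3 at 3.21 (3.05 to 3.07) and Msh6 at 61.4 (46.6 to 48.8). Null control B stood apart for Xrcc4 at 0.646 (0.918 to 0.985) and for Fancd2 at 2.47 (1.97 to 2.02). In heterozygous pools, heat A was low for Ercc1 at 4.07 (6.35 to 6.55) and control D was low for Trp53bp1 at 0.766 (0.923 to 0.952). In wildtype pools, heat A was low for Chek2 at 5.85 (6.74 to 6.91), heat C was high for Rad52 at 1.61 (1.13 to 1.19) and control A was high for Rad54l at 14.9 (10.5 to 11.0).

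The heat response of Rad51c differed between null and wildtype pools by 1.0 on the log2 scale by the interaction term in limma (adjusted p = 0.049). The call was kept in 6 of 24 alternatives and in 2 of the 15 that left out 1 pool.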

How the results depend on the processing

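Of 805 repeats of 38 named calls under the alternatives, 630 stayed past the threshold in the same direction, 175 kept the direction and missed it, and 0 reversed. The alternatives refit the arrays in which these calls had passed, so a reversal was unlikely from the start. The counts of the 36 genes that passed moved as follows, and the cause was not tested. The shares of all genes called under each alternative are not given here, so these counts stand without a background. Values as deposited called 5 with heat in wildtype pools (2 as reported), 2 in null pools (4 as reported), 3 in null against wildtype heat pools (0 as reported) and 2 in the null minus wildtype response (1 as reported). Fitting only the compared groups called 0 with heat in heterozygous (3 as reported), 2 in null, and 8 in null against wildtype control pools (3 as reported, all lower, against 5 of 8 higher). The split score as a covariate called 4 with heat in wildtype, 1 in null, 0 in null against wildtype control, 1 in null against wildtype heat pools and 0 in the response. Without a filter on dim probes the counts were 2 in null pools and 0 in the response. Median centring called 12 in the average of the heat responses (7 as reported) and 0 in the null minus wildtype response, and the mean of a gene's probes called 0 there. Without the 4 arrays whose brightest values were the lowest, chosen after seeing the data, 1 passed in heterozygous and 2 in null pools, and 0 in the response.

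Whether equal letters pair the pools was not settled. The correlations of same-letter deviations ran from -0.12 to 0.38, and pools of different letters were not correlated for comparison. With the letter as a replicate block 2 passed with heat in wildtype, 3 in heterozygous and 2 in null pools, 7 in the average, 4 in null against wildtype control pools and 1 in the response. Leaving out 1 pool gave 2 to 3 calls with heat in wildtype, 3 to 3 in heterozygous and 2 to 3 in null pools, 5 to 8 in the average, 0 to 5 in null against wildtype control, 0 to 2 in null against heterozygous control, 0 to 2 in null against wildtype heat pools and 0 to 2 in the response. The pair without heterozygous control C was Rad51c and Rad52, and that without null heat A was Trp53bp1 and Ung. The shares of all genes called in these refits are not given here either. The counts with the letter or with 1 pool left out thus stand without a background. Scaling shifts the median over all tested probes with heat in wildtype pools (0.04, -0.12 as deposited) and in null pools (-0.01, -0.11 with median centring), after heat in null against wildtype (-0.01, 0.14 as deposited) and heterozygous against wildtype pools (0.01, 0.13 as deposited), and in the null minus wildtype response (-0.04, 0.09 as deposited), and fold changes are relative to it. The share of called probes that were higher with heat was 60.3% in null (36.2% with median centring), 43.2% in heterozygous (27%) and 56.5% in wildtype pools (30.6%, and 9.95% as deposited). Probes near background and the 3 to 4 pools per group limit what could pass.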
